A study of Mus musculus with 14 samples.

Results

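Among the RNAs measured in these mouse livers, 8 genes that encode steroid-metabolizing enzymes were examined after deletion of Cul3 in hepatocytes, under a control diet (CD) and a Western diet (WD). They are Hsd3b5, Hsd3b2, Hsd3b3, Cyp17a1, Srd5a1, Hsd11b1, Hsd17b2 and Hsd17b6, chosen by name from the 43548 genes of the deposited table, and all 8 were among the 10870 genes that reached 1 FPKM in at least 3 of the 14 libraries and were tested. FPKM is the fragment count divided by transcript length and library size. All mice were C57BL/6 animals carrying a floxed Cul3 gene. They ate CD or WD for 13 weeks, received an adeno-associated virus (AAV) by tail vein, and ate the same diet for 5 more weeks. The groups were KO on CD (AAV-TBG-Cre, 3 libraries), WT on CD (virus without Cre, 3 libraries), KO on WD (AAV-TBG-Cre, 4 libraries) and WT on WD (virus without Cre, 4 libraries). TBG is a hepatocyte promoter, which aims Cre at hepatocytes among the liver's cells, and the WT mice carry the floxed allele as well. The labels give neither sex nor age. They do not say that the libraries come from different animals, and the spread behind each p-value may therefore be technical.

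The liver takes up circulating steroids and reduces, oxidizes, hydroxylates and conjugates them, which sets how much active hormone it returns to the blood and sees itself. Several of these enzymes differ between male and female mouse livers, under the control of the pattern of growth hormone release. Cul3 encodes the scaffold of a family of ubiquitin ligases, and with KEAP1 as adaptor the ligase keeps the transcription factor NRF2 low. Hsd3b5 encodes a mouse enzyme of male liver that reduces ketosteroids and inactivates dihydrotestosterone, Hsd3b2 and Hsd3b3 encode dehydrogenase-isomerases of the same family, and Srd5a1 encodes the reductase that makes dihydrotestosterone from testosterone. Cyp17a1 encodes a hydroxylase and lyase on the route to androgens and glucocorticoids, Hsd11b1 the reductase that regenerates corticosterone inside the cell, Hsd17b2 an oxidase that inactivates estradiol and testosterone, and Hsd17b6 an oxidoreductase that turns androstanediol back into dihydrotestosterone.

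Hsd3b5, Hsd3b2 and Hsd3b3 lie in a cluster on mouse chromosome 3, and the stretches before Hsd3b5 and Hsd3b3 are shown because these genes differed in their values between KO and WT. Hsd3b5 (ENSMUSG00000038092) spans chr3:98618634-98630252, Hsd3b2 (ENSMUSG00000063730) chr3:98709255-98724543 and Hsd3b3 (ENSMUSG00000062410) chr3:98741523-98763127, all on the minus strand (GENCODE M21, mm10). RefSeq (GRCm38.p6) gave start sites for 6 of the 8 genes, all but Cyp17a1 and Hsd17b2. Each sequence below is the 250 bases before the RefSeq start on the minus strand, chr3:98645535-98645784 for Hsd3b5 and chr3:98763129-98763378 for Hsd3b3. The start RefSeq gives for Hsd3b5 lies 15.3 kb upstream of the GENCODE one.
Hsd3b5: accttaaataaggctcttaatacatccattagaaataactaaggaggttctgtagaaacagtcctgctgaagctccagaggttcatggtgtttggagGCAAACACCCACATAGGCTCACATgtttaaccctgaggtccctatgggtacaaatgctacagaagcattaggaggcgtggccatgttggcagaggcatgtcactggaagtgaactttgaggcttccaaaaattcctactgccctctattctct
Hsd3b3: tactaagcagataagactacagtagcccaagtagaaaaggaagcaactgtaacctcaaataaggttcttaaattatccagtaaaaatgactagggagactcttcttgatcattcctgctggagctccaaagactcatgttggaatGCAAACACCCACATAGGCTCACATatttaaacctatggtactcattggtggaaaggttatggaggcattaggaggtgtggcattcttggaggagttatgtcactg
Capitals mark the longest run the pair shares without a mismatch, 24 bases long, which begins 153 bases before the Hsd3b5 start and 105 bases before the Hsd3b3 start. A local alignment of the pair was 75.5% identical over 204 columns. The same window of Hsd3b2 aligned to that of Hsd3b5 at 55.1% identity over 254 columns, and its longest shared run was 8 bases. The STAT5-type motif TTCNNNGAA, which reads the same on both strands, had no match in the windows of the 6 genes and a match in 7.02% of the 32851 mouse promoter windows of this length.

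Some facts of the whole series bear on the values that follow. Clustering, set to give 2 clusters, split the libraries into 2 sets by the ratios shared among genes detected in few libraries. The median share was 7.08% within set 1, 4.78% within set 2 and 2.63% between. These shares overlapped, from 3.01% up within set 1, from 2.02% up within set 2 and up to 3.82% between. The meaning of the sets is not known. On CD every KO library is of set 2 and every WT library of set 1, where the effects of set and genotype cannot be told apart. A second fit with the set in the model uses the WD libraries to separate them, and its values stand beside the CD values of each of the 8 enzymes. The median log2 fold change over all tested genes was 0.18 on CD and 0.23 on WD (KO over WT), and 77.7% of the calls on CD and 85.7% on WD were higher in KO. After quantile normalization these shares were 54.98% and 52.7%, and after median centring 54.9% and 49.7%. Cul3 itself measured 11.3 to 18.3 FPKM in KO and 23.9 to 29.5 in WT on CD, and 18.5 to 26.6 in KO and 7.46 to 25.9 in WT on WD. Which exons were floxed is unknown here and the tags sit at the 3' end, possibly beyond them, so the Cul3 values are no check of deletion or labels. Nqo1, a classical NRF2 target, stood at 17.4 to 50.2 FPKM in the 7 KO libraries and at 2.05 to 6.21 in the 7 WT libraries. The Y-linked genes Ddx3y (11.5 to 27.7 FPKM) and Eif2s3y (4.34 to 26.5) were present in all 14 libraries, and Xist was at 0 to 0.649 FPKM. The highest Xist value was that of KO on CD replicate 3, and every other library was at 0.0629 FPKM or below. Markers of steroid-making cells of adrenal and gonad summed to at most 2.63 FPKM in any library, and Cyp11a1, Cyp11b2, Nr5a1 and Mc2r were listed at 0 in all 14. Hepatocyte markers summed to 12650 to 29570 FPKM over the libraries. Of 9 macrophage markers, 1 on CD and 4 on WD were called higher in KO and none lower (0 and 3 with library set in the model), where 11.7% of all tested genes on CD and 6.01% on WD were called higher. Their summed FPKM was 104 to 220 in KO and 51.5 to 80.8 in WT on CD, and 182 to 330 in KO and 77.8 to 160 in WT on WD. Of 5 tested endothelial markers, 2 on CD and 1 on WD were called higher (0 and 1 with library set in the model). The 6 endothelial markers summed to 72.2 to 91.8 FPKM in KO and 42.2 to 49.8 in WT on CD, and to 61.7 to 99.8 in KO and 44.3 to 69.3 in WT on WD. The part of these cells in the results below was not tested.

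Of the 8 enzymes, 2 passed the test on CD: Hsd3b5 was lower and Cyp17a1 higher in KO. On WD 4 passed, Hsd3b5 and Hsd3b3 lower, Cyp17a1 and Hsd11b1 higher in KO. Over all tested genes 15.0% were called on CD and 7.01% on WD (limma, Benjamini-Hochberg adjusted p under 0.05). The libraries of KO and WT did not overlap for 6 of the 8 on CD, where 41.6% of all tested genes did not overlap, and for 4 of the 8 on WD, where 13.7% did not. The median log2 fold change of the 8 was 0.10 on CD and 0.04 on WD.

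**Figure D1:**
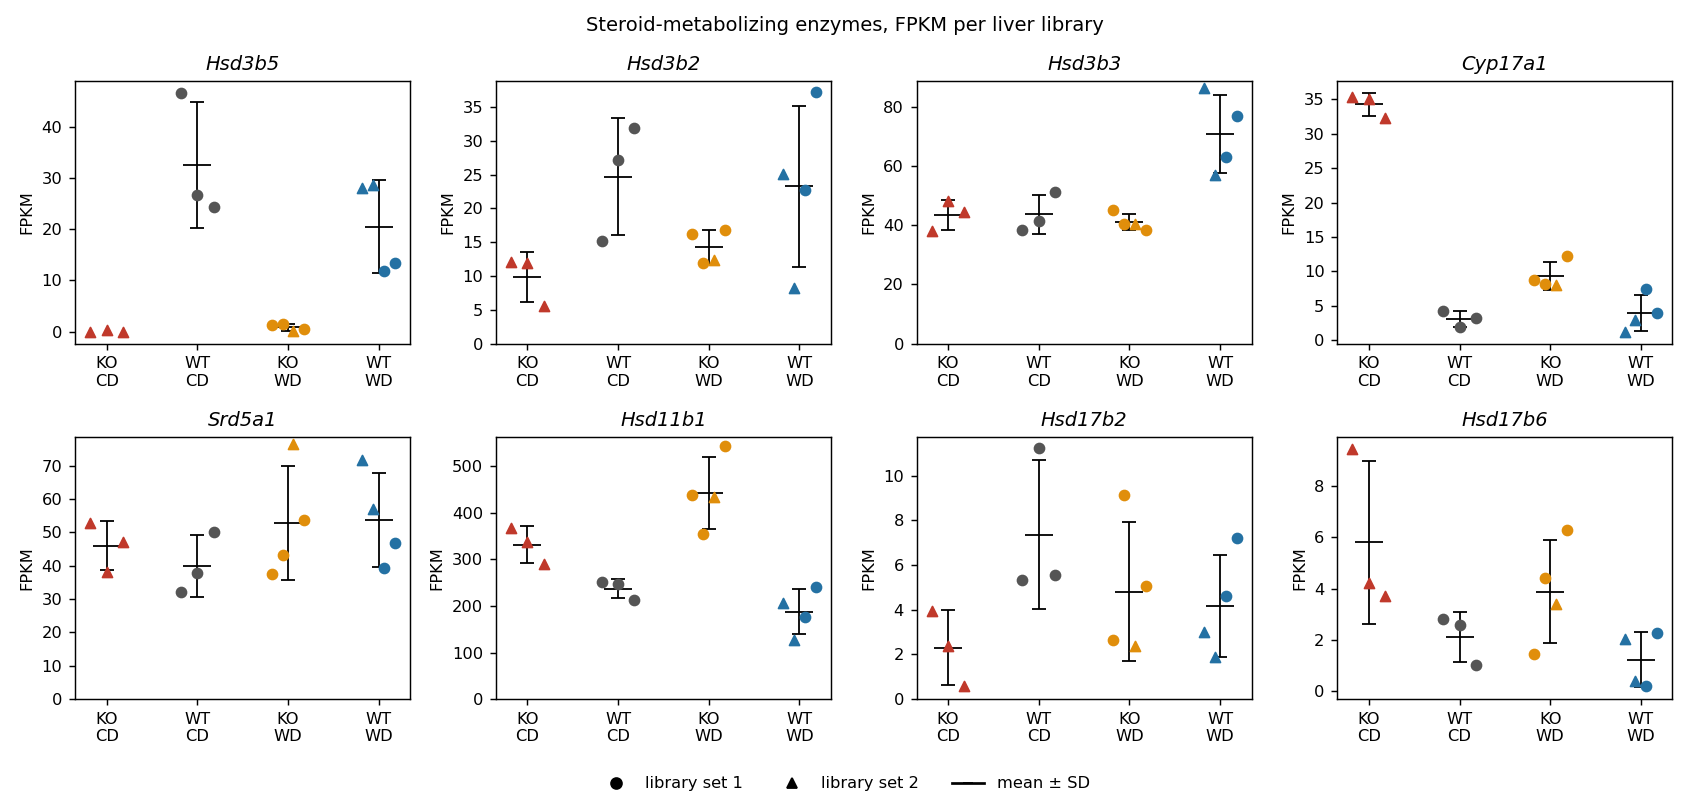
FPKM of the 8 enzymes in each liver library (vertical axes) by group (horizontal axes), with circles for library set 1, triangles for set 2 and bars for the mean ± SD, left out for the group with libraries listed at 0. Hsd3b5 stood between 0 and 1.54 FPKM in KO and between 11.8 and 46.6 in WT, and Cyp17a1 reached 32.3 to 35.3 FPKM in KO on CD only.

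Hsd3b5 fell to the bottom of the measured range in KO livers on either diet. It was listed at 0, 0.265 and 0 FPKM in the KO libraries on CD, against 46.6, 26.6 and 24.3 FPKM in the WT libraries. Values on WD were 1.23, 1.54, 0.131 and 0.483 FPKM in KO, against 28.0, 28.7, 11.8 and 13.4 FPKM in WT. The highest of the 7 KO libraries thus lay below the lowest of the 7 WT libraries. The WD means were 0.846 ± 0.652 FPKM in KO and 20.5 ± 9.10 FPKM in WT (SD, n = 4 each), which is 24.2 times lower in KO. The log2 fold change of FPKM + 1, a scale that understates changes of genes near 0, was -4.89 ± 0.39 on CD (SE; adjusted p = 8.30e-06 by limma) and -3.51 ± 0.34 on WD (adjusted p = 3.91e-05). With library set in the model these were -5.17 (adjusted p = 0.00036) and -3.44 (adjusted p = 8.47e-05). On WD the difference was present in both sets, at -2.74 in set 1 (3 KO and 2 WT libraries) and -4.70 in set 2 (1 KO and 2 WT). The knockout effect, WD minus CD, differed by 1.39 ± 0.52 on the log2 scale, which did not pass (adjusted p = 0.117 by limma). By the rank of its p-value Hsd3b5 was gene 11 of 10870 on CD and gene 24 on WD.

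The rarity of Hsd3b5 in KO livers can be put in fragments only roughly, since counts are not given. If the most frequent low value of a library is that of 1 fragment, the libraries held 3563000 to 11023000 fragments. Set 2 was mostly shallower, at 3563000 to 8326000 fragments, against 7335000 to 11023000 in set 1. Hsd3b5 then corresponds to about 0, 1.93 and 0 fragments in KO on CD and to 561, 295 and 276 in WT on CD. On WD it corresponds to about 13.6, 17.7, 1.44 and 4.57 fragments in KO and to 246, 168, 166 and 189 in WT. KO libraries 1 and 2 on WD, both of set 1, therefore held a low but nonzero signal, while the KO libraries on CD were at a level near 1 fragment that this depth cannot resolve from 0.

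Hsd3b3 was lower in KO livers on WD, and no difference was detected on CD. On CD it measured 38.0, 48.1 and 44.3 FPKM in KO, against 38.4, 41.5 and 51.0 FPKM in WT. The WD libraries gave 45.0, 40.2, 40.4 and 38.4 FPKM in KO, against 86.2, 56.9, 63.1 and 76.9 FPKM in WT. The CD groups overlapped, while on WD all 4 KO libraries lay below the lowest WT library and near the level of both CD groups. The log2 fold change on WD was -0.76 ± 0.16 (adjusted p = 0.0129 by limma), with -0.75 within set 1 and -0.78 within set 2, and on CD it was -0.0014 (95% interval -0.40 to 0.40, adjusted p = 0.999; 0.0051 and adjusted p = 0.997 with library set in the model). The change of the knockout effect between diets was -0.75 ± 0.25 and did not pass the test (adjusted p = 0.0893). The WD call was lost when only the 2 WD groups were fitted (adjusted p = 0.0514 by limma) and within either library set alone.

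Hsd3b2, the third of these genes, varied more within the WT groups. It measured 12.0, 11.9 and 5.61 FPKM in KO on CD, against 15.1, 27.1 and 31.9 FPKM in WT on CD. On WD it measured 16.2, 11.9, 12.4 and 16.8 FPKM in KO, against 25.0, 8.23, 22.7 and 37.3 FPKM in WT. The CD groups did not overlap and the WD groups did. Neither difference passed the test, at -1.25 ± 0.45 on CD (adjusted p = 0.0723 by limma) and -0.51 ± 0.39 on WD (adjusted p = 0.441), and with library set in the model the CD value was -0.60 (adjusted p = 0.697).

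The other family members were near the bottom of the range. Hsd3b4, which lies on the other side of Hsd3b5 from Hsd3b2 in the cluster, was listed at 0 in all 7 KO libraries. It measured 0.954, 0.559 and 0.369 FPKM in WT on CD and 0.429, 0.536, 0.468 and 0.181 FPKM in WT on WD. Hsd3b4 was too low to enter the test, as were Hsd3b6 (0 to 0.948 FPKM) and Hsd3b1, which was listed at 0 throughout. Over their last 500 bases the Hsd3b4 and Hsd3b5 transcripts were 86.6% identical. No stretch of 75 bases in that part of Hsd3b4 was found in another family transcript. Whether reads of Hsd3b5 were assigned to Hsd3b4 was not tested. Hsd3b7, the family member that works in bile acid synthesis and lies on chromosome 7, fell by 0.76 on the log2 scale in KO on CD (adjusted p = 0.0303 by limma; -0.60 and adjusted p = 0.363 with library set in the model).

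Summed over the 7 family genes in the table (Hsd3b1 to Hsd3b7; Hsd3b8 and Hsd3b9 were not matched), the family was lower in every KO library. The sums were 53.2, 64.1 and 51.5 FPKM in KO on CD, against 106, 102 and 112 FPKM in WT on CD. On WD they were 66.5, 57.2, 56.0 and 58.8 FPKM in KO, against 144, 98.5, 102 and 133 FPKM in WT. No KO library reached the lowest WT library. The sum includes Hsd3b5, itself lower in every KO library, so a lower sum does not show that the other members fell. The log2 difference was -0.92 on CD (exact permutation test, two-sided p = 0.1, the smallest that 3 against 3 allows) and -0.97 on WD (exact p = 0.0286, the smallest that 4 against 4 allows; 0.114 adjusted over the 4 comparisons of this sum). FPKM divides a 3' tag count by transcript length, so the sum and the shares within it depend on the lengths used and are compared between libraries only, not read as proportions of RNA molecules. Hsd3b5 made up 0, 0.413 and 0% of the sum in KO on CD and 43.8, 26.2 and 21.7% in WT on CD. On WD its share was 1.85, 2.69, 0.234 and 0.822% in KO and 19.5, 29.1, 11.6 and 10.1% in WT. Reads that match more than one family member limit these values: over the last 500 bases, every window of 75 bases in Hsd3b5 and in Hsd3b2 was found in no other family transcript, but 21.8% of those in Hsd3b3 also occur in transcripts of Hsd3b6 and 18.5% in those of Hsd3b2. The read length and the treatment of such reads are unknown here.

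**Figure D2:**
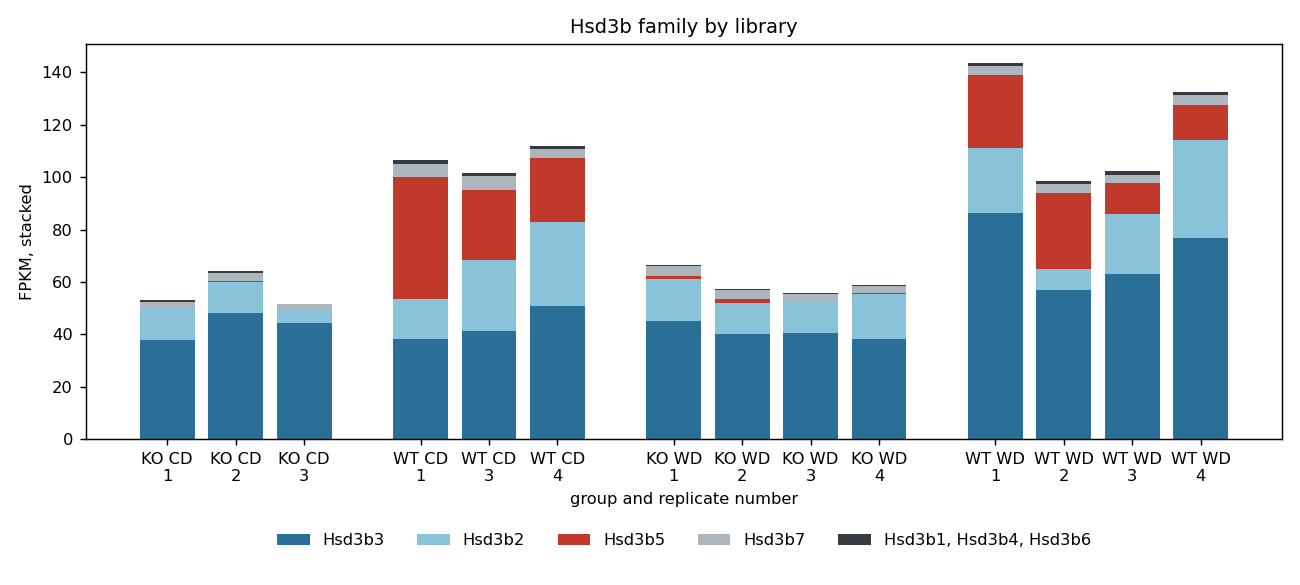
FPKM of the Hsd3b genes stacked for each library (vertical axis), with libraries ordered by group and replicate number (horizontal axis) and colours for the genes. The red Hsd3b5 segment is 11.8 to 46.6 FPKM high in WT and at most 1.54 FPKM in KO, and the Hsd3b3 segment is 56.9 to 86.2 FPKM in WT on WD, against 38.0 to 51.0 FPKM in the other groups.

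Cyp17a1 rose in KO livers, and its level in KO depended on the diet. Cyp17a1 (ENSMUSG00000003555, chr19:46667165-46673172, minus strand, mm10) measured 35.3, 35.1 and 32.3 FPKM in KO on CD, against 4.27, 1.88 and 3.17 FPKM in WT on CD. On WD it measured 8.76, 8.24, 8.07 and 12.3 FPKM in KO, against 1.26, 3.01, 7.48 and 3.97 FPKM in WT. All 3 KO libraries on CD stood above every other library, and the lowest KO library on WD lay just above the highest WT library. The ratio of means, KO over WT, was 11.04 on CD and 2.38 on WD. The log2 fold change was 3.15 ± 0.38 on CD (adjusted p = 0.000286 by limma; 3.88 and adjusted p = 0.000526 with library set in the model), and 13 of 13 alternatives kept this call, with values of 2.91 to 3.88.

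The rise of Cyp17a1 on WD was smaller and rested on narrow margins. Its log2 fold change was 1.21 ± 0.33 (adjusted p = 0.0409 by limma), and 1.02 with library set in the model (adjusted p = 0.0443). The direction was the same in both sets, at 0.71 in set 1 and 1.59 in set 2. The call was lost in 15 of 17 alternatives, among them the removal of any 1 WD library other than WT replicate 3 (adjusted p from 0.0547 to 0.118), while the removal of WT replicate 3 gave 1.52 (adjusted p = 0.00785).

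Between diets, Cyp17a1 fell by 1.79 on the log2 scale in KO on WD relative to KO on CD (SE 0.35; adjusted p = 0.0165 by limma). The means were 9.34 ± 1.99 FPKM in KO on WD (SD, n = 4) and 34.3 ± 1.66 FPKM in KO on CD (SD, n = 3). It was the only one of the 8 enzymes called between diets within KO, where 6.38% of all tested genes were called, and the only one whose diet groups did not overlap there, against 26.9% of all genes. The fall had adjusted p = 0.0183 with library set in the model, at -2.34. It lost its call without KO on CD replicate 1 (0.0601), without KO on CD replicate 3 (0.0522) and without KO on WD replicate 2 (0.0518). Within set 2, where a single KO library on WD meets the 3 on CD, it was -1.96 (adjusted p = 0.126). In WT livers the diet difference was 0.15 and did not pass. The difference between the knockout effects, WD minus CD, was -1.94 ± 0.50 and missed the threshold (adjusted p = 0.0639 by limma). It passed without WT on WD replicate 3 (-1.63, adjusted p = 0.0452) and without WT on WD replicate 4 (-1.88, adjusted p = 0.0448).

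Srd5a1 gave no call in any comparison. Srd5a1 (ENSMUSG00000021594, chr13:69573449-69611442, minus strand) measured 52.7, 38.1 and 47.2 FPKM in KO on CD, against 32.0, 37.7 and 50.0 FPKM in WT on CD. Libraries on WD gave 37.5, 43.3, 76.4 and 53.7 FPKM in KO, against 71.7, 57.0, 39.2 and 46.7 FPKM in WT. The groups overlapped on either diet. The log2 fold change was 0.21 on CD (95% interval -0.40 to 0.82; adjusted p = 0.627 by limma) and -0.04 on WD (-0.57 to 0.48; adjusted p = 0.937), and its sign on CD turned with library set in the model (-0.44, adjusted p = 0.520) and under quantile normalization (-0.02). Srd5a1 was not called between library sets, where its ranges overlapped. It ran from 38.1 to 76.4 FPKM in set 2 and from 32.0 to 53.7 in set 1, a log2 difference of 0.65 ± 0.19 that missed the threshold (adjusted p = 0.0577 by limma).

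Hsd11b1 rose in KO livers on WD. Its promoter window is shown because the gene was called in the KO and holds 1 match to the core TGACNNNGC of the element that NRF2 binds. Hsd11b1 (ENSMUSG00000016194) spans chr1:193221634-193264075 on the minus strand. The 250 bases before its RefSeq start are chr1:193242361-193242610 (GRCm38.p6, minus strand), a start that lies 21.7 kb inside the GENCODE gene.
Hsd11b1: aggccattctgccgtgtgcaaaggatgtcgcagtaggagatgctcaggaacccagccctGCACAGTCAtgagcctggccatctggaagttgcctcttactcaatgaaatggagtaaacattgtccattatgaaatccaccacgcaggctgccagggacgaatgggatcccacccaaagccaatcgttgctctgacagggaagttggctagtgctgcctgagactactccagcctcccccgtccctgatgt
Capitals mark the match, which begins 191 bases before the start and is on the reverse strand. A match on either strand was found in 10.2% of the 32851 promoter windows, so a match alone is common.

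Hsd11b1 measured 437, 353, 434 and 542 FPKM in KO on WD, against 206, 126, 176 and 242 FPKM in WT on WD. On CD it measured 368, 338 and 289 FPKM in KO, against 251, 246 and 213 FPKM in WT. The groups did not overlap on either diet. KO livers held 2.35 times the WT mean on WD and 1.40 times on CD. The log2 fold change was 1.25 ± 0.20 on WD (adjusted p = 0.00185 by limma) and 0.48 ± 0.23 on CD, where it did not pass (adjusted p = 0.156; 0.69 and adjusted p = 0.327 with library set in the model). Within WD it was 1.08 in set 1 and 1.42 in set 2, neither of them called alone, and 1.20 with library set in the model (adjusted p = 0.00277). The change of the effect between diets was 0.77 ± 0.30 (adjusted p = 0.126).

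H6pd, which supplies NADPH to the HSD11B1 enzyme inside the endoplasmic reticulum, averaged 102.7 ± 8.25 FPKM in KO and 61.0 ± 22.5 FPKM in WT on WD (SD, n = 4 each) and did not pass the test (log2 fold change 0.83, adjusted p = 0.143 by limma). On WD 4 of 9 macrophage markers and 1 of 5 tested endothelial markers were called higher in KO, where 6.01% of all tested genes were. The summed endothelial markers overlapped between KO and WT on WD. The part of these cells in the Hsd11b1 result was not tested. In bulk liver, fewer cells of a type and less RNA per cell cannot be told apart.

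**Figure D3:**
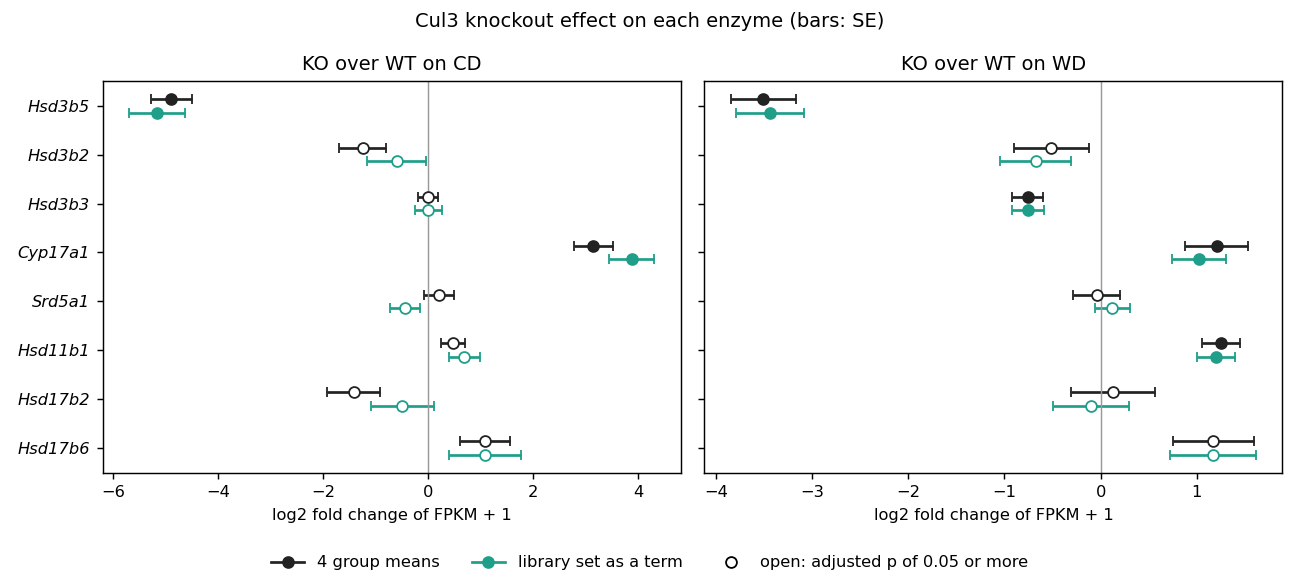
Log2 fold change of FPKM + 1, KO over WT (horizontal axes), for each enzyme (vertical axis) on CD and on WD, with SE bars; black points are from the fit of 4 group means, green points from the fit with library set in the model, and open points did not pass the test. Hsd3b5 lies at -4.89 and -3.51 and Cyp17a1 at 3.15 and 1.21, while Hsd3b3 is at 0 on CD and at -0.76 on WD.

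Hsd17b2, the oxidase that inactivates estradiol and testosterone, gave no call. Hsd17b2 (ENSMUSG00000031844, chr8:117701904-117759027, plus strand) measured 3.96, 2.36 and 0.594 FPKM in KO on CD, against 5.33, 11.2 and 5.54 FPKM in WT on CD. On WD it measured 2.63, 9.11, 2.39 and 5.07 FPKM in KO, against 3.00, 1.90, 4.60 and 7.19 FPKM in WT. The CD groups did not overlap, and the WD groups did. The log2 fold change was -1.42 ± 0.51 on CD (adjusted p = 0.0732 by limma), which was -0.49 with library set in the model (adjusted p = 0.782), and 0.13 on WD (adjusted p = 0.888). Across all libraries it ran from 0.594 to 3.96 FPKM in set 2 and from 2.63 to 11.2 FPKM in set 1 (log2 difference -0.93 ± 0.41, adjusted p = 0.189).

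Hsd17b6, which turns androstanediol back into dihydrotestosterone, had higher means in KO on both diets and did not pass the test. Hsd17b6 (ENSMUSG00000025396, chr10:127990936-128007611, minus strand) measured 9.48, 4.21 and 3.73 FPKM in KO on CD, against 2.81, 2.56 and 1.01 FPKM in WT on CD. The WD values were 1.45, 4.40, 3.39 and 6.28 FPKM in KO, against 2.02, 0.388, 0.204 and 2.27 FPKM in WT. Only the CD groups did not overlap. The log2 fold changes were 1.08 ± 0.48 on CD (adjusted p = 0.137 by limma) and 1.17 ± 0.42 on WD (adjusted p = 0.114), and with library set in the model 1.08 (adjusted p = 0.518) and 1.17 (adjusted p = 0.136).

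In WT livers the diet moved none of the 8 enzymes past the threshold, where 1.30% of all tested genes were called. At an unadjusted p under 0.05, which 15.9% of all tested genes met, 1 enzyme differed, Hsd3b3, and it was also the only one whose diet groups did not overlap (15.5% of all genes). Hsd3b3 averaged 70.8 ± 13.2 FPKM in WT on WD (SD, n = 4) and 43.6 ± 6.56 FPKM in WT on CD (SD, n = 3), a ratio of 1.62. The log2 difference was 0.68 ± 0.17 (adjusted p = 0.0863 by limma), it passed without WT on WD replicate 2 (0.77, adjusted p = 0.049), and with library set in the model it was 0.68 (adjusted p = 0.161). In KO livers the same contrast was -0.08. Hsd3b5 had a log2 difference of -0.69 ± 0.37 between diets in WT (adjusted p = 0.372) and of 0.70 ± 0.37 in KO (adjusted p = 0.224). None of the 8 passed the test of the difference of the knockout effect between diets, where 0.340% of all genes were called, and 5 had an unadjusted p under 0.05, as did 26.9% of all tested genes.

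Beyond the 8, a list of 77 other genes of steroid metabolism was followed, of which 71 were in the table and 51 were tested. On CD 13 were called higher and 4 lower in KO, against 11.7% and 3.35% of all tested genes, with a list median of 0.34. On WD 14 were called higher and none lower, with a median of 0.46, against 6.01% of all tested genes called higher and 109 of 10870 lower; by unadjusted p under 0.05, met by 23.4% of all tested genes in either direction, these counts were 19 and 1. With library set in the model the counts were 3 and 0 on CD and 15 and 0 on WD. After quantile normalization 9 were higher and 4 lower on CD and 12 higher and 1 lower on WD.

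The largest called rise among the listed genes on either diet was that of the hydroxylase gene Cyp2a5. Of 8 tested hydroxylases, 3 rose on CD and the same 3 rose on WD, where 11.7% and 6.01% of all tested genes were called higher. They were Cyp2a4, which hydroxylates testosterone, its close copy Cyp2a5, best known for hydroxylating coumarin, and Cyp1a2, which hydroxylates estrogens. Cyp2a5 averaged 3399 ± 882 FPKM in KO and 706 ± 197 FPKM in WT on CD (SD, n = 3 each), and 2730 ± 778 FPKM in KO and 212 ± 105 FPKM in WT on WD (SD, n = 4 each). Its log2 fold change was 2.27 on CD (adjusted p = 0.00277 by limma) and 3.77 on WD (adjusted p = 1.70e-05). Cyp2a4 gave 2.07 and 2.69 and Cyp1a2 gave 1.61 and 2.55. Cyp1a2 lost its CD call with library set in the model (1.10, adjusted p = 0.141), and Cyp2a4 and Cyp2a5 are near-identical copies between which reads can be split.

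Reductases and dehydrogenases moved in both directions. Cbr1, a carbonyl reductase that also acts on steroids, averaged 72.9 ± 15.4 FPKM in KO and 19.9 ± 1.30 FPKM in WT on CD, and 93.1 ± 13.6 FPKM in KO and 13.9 ± 5.87 FPKM in WT on WD (SD). Its log2 fold changes were 1.80 (adjusted p = 0.00196 by limma) and 2.73 (adjusted p = 2.46e-05), and it kept its CD call with library set in the model. Among 8 tested genes of ring reductases and of the Akr1c family, Akr1c19 rose on CD (1.39) and on WD (1.79). Akr1d1, which reduces the steroid A ring for bile acids and hormones, rose on WD (0.99, adjusted p = 0.0098 by limma). Akr1c6, a dehydrogenase of androgens and estrogens in mouse liver, fell on CD (-1.28, adjusted p = 0.0234 by limma). Among 9 tested genes of the 17β-dehydrogenase type, Hsd17b13, a lipid droplet protein, rose on CD (1.06) and on WD (1.07), and Hsd17b4, which works in peroxisomal oxidation, fell on CD (-1.01, adjusted p = 0.0303). Akr1c19, Akr1c6, Hsd17b13 and Hsd17b4 lost their CD calls with library set in the model (adjusted p from 0.0774 to 0.535).

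Conjugation was the role with the most calls. Of 9 tested conjugation genes, 5 were called higher on CD and 6 on WD, where 11.7% and 6.01% of all tested genes were. The medians were 0.76 and 0.99. None was called lower, though 2 had a negative fold change on CD. Of these, Ugt2b34 averaged 46.0 FPKM in KO and 107 FPKM in WT on CD. Among those called higher were the glucuronosyltransferases Ugt2b1 (0.67 on CD and 1.10 on WD), Ugt2b36 (0.94 and 0.99) and Ugt2b5 (0.84 and 0.98). The sulfotransferase Sult1a1 (1.09 and 0.99) was called as well. None of the 5 kept its CD call with library set in the model, and 6 were called on WD in that fit. After quantile normalization 2 rose on CD and 5 on WD. On CD the ranking of roles did not hold in these alternatives, where 2 and 3 hydroxylases were called higher. Of 7 tested genes of electron and cofactor supply, Por, the reductase that CYP17A1 depends on, rose on CD (1.26, adjusted p = 0.0249 by limma; 1.08 and 0.310 with the set term), Fdxr rose on CD (1.24, adjusted p = 0.00985; 0.143 with the set term), and Pgrmc1, a heme-binding partner of P450 enzymes, rose on WD (0.83, adjusted p = 0.00275). Por averaged 635 ± 141 FPKM in KO and 274 ± 103 FPKM in WT on CD, and 271 ± 74.6 FPKM in KO and 248 ± 68.3 FPKM in WT on WD. Of 7 receptors, carriers and response genes, Tat, a classical glucocorticoid response gene, fell on CD (-2.46, adjusted p = 0.0425 by limma). With library set in the model the value of Tat was -0.66 (adjusted p = 0.756). The response genes Fkbp5 and Tsc22d3 went the other way on CD and were not called. Fkbp5 averaged 17.8 FPKM in KO and 9.94 FPKM in WT on CD, and Tsc22d3 averaged 38.3 and 21.4 FPKM. None of these 7 was called on WD, where Nr3c1, the glucocorticoid receptor, had a log2 fold change of 0.74 (adjusted p = 0.0595 by limma), but with library set in the model Nr3c1 was called higher (0.59, adjusted p = 0.0419).

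**Figure D4:**
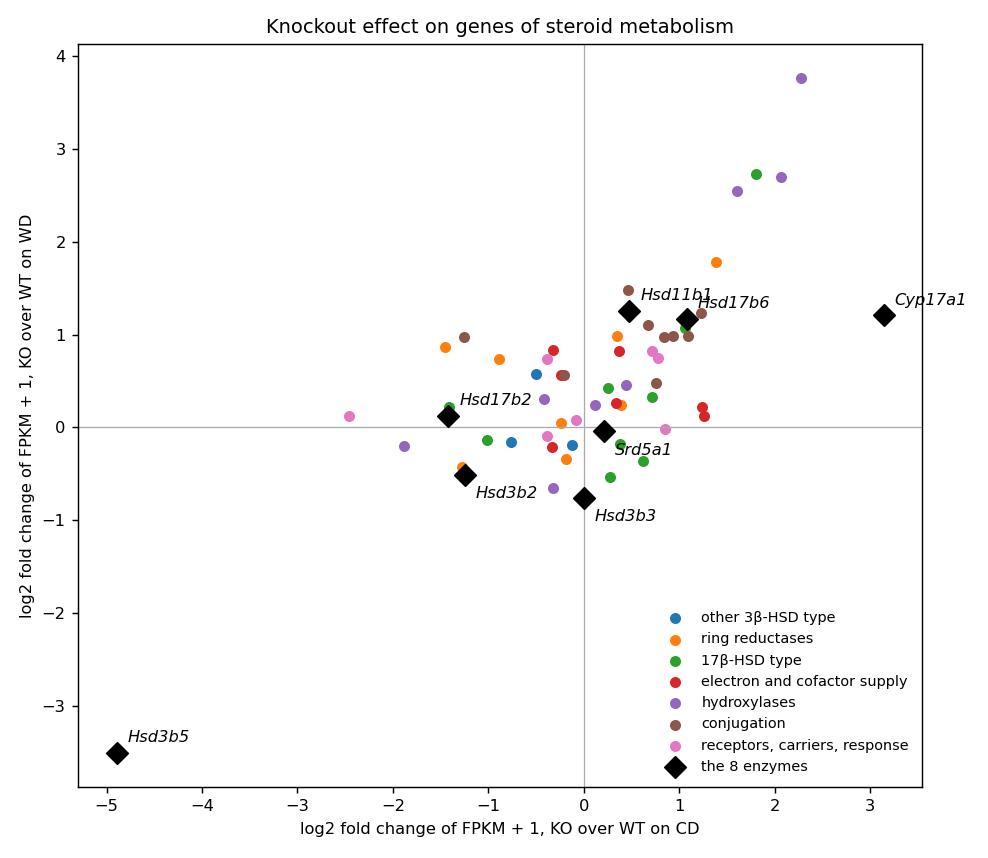
Log2 fold change of FPKM + 1, KO over WT, on CD (horizontal axis) and on WD (vertical axis) for the tested genes of steroid metabolism, coloured by role, with the 8 enzymes as black diamonds. The role named ring reductases also holds the Akr1c genes. Hsd3b5 stands alone at the lower left (-4.89 and -3.51), Cyp17a1 at the far right (3.15 on CD), and Cyp2a5 at the top (2.27 and 3.77).

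Between diets most calls among the listed genes were lower on WD. In WT on WD relative to WT on CD, 5 were lower and 1 higher (4 and 0 with library set in the model), where 0.635% of all tested genes were lower and 0.662% higher: Nsdhl of cholesterol synthesis (-2.33), Cyp2c29 (-1.88), Cyp1a2 (-1.55), Cyp2a5 (-1.82) and Akr1c19 (-1.05) were lower, and Hsd17b12 was higher (0.86). In KO on WD relative to KO on CD, 4 were lower and none higher (2.55% of all tested genes were lower), namely Nsdhl (-1.25), Por (-1.25), Cyp2c29 (-1.16) and Sult1a1 (-0.78), and none was called with library set in the model.

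Some genes that differ by sex in mouse liver moved beside Hsd3b5 and Cyp17a1. Of 15 tested male-biased genes other than the 8 enzymes, 9 were lower and 1 higher in KO on CD (6 and 0 with library set in the model), where 3.35% of all tested genes were lower and 11.7% higher. On WD 8 were lower and 2 higher in KO (8 and 2), where 109 of all 10870 were lower and 6.01% higher. Of 17 listed female-biased genes other than the 8, only 7 were tested, and the rest were too low to enter the test. Of the 7, 2 were called higher on CD and 3 on WD (2 and 3 with library set in the model), against the same 11.7% and 6.01% of all tested genes. None was called lower, though 2 on CD and 1 on WD had a negative fold change. After quantile normalization the male-biased counts were 9 lower and 0 higher on CD and 9 lower and 2 higher on WD. The female-biased counts were then 2 higher on each diet and none lower. These lists were written with results of these data known.

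The genes whose level followed each called enzyme most closely over the 14 libraries were found by the mean absolute difference of their centred log2 values. For Hsd3b5 they were Mup15 (0.463), Mup16 (0.507) and Elovl3 (0.537), and the Mup genes are near-identical copies whose reads can be split. For Cyp17a1 they were Sdsl (0.457), Wfdc15b (0.504) and Ptgfr (0.519). Hsd11b1 was followed by Cyp2c69 (0.145), Fam69a (0.168) and Fam13a (0.173). For Hsd3b3 they were Pex11a (0.180), Ncbp1 (0.187) and Ift20 (0.191), and small distances are easier to reach for genes that vary little.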

How the data were processed

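Per the labels' protocols, 14 stranded QuantSeq 3' FWD libraries of total liver RNA were sequenced on a NovaSeq; this kit reads tags at the transcript's 3' end. The authors deposited FPKM values for 43548 genes; the submitters' processing notes name Cufflinks and mm10 with no version. Aligner, annotation, handling of multi-mapped reads, counts and true depth are unknown here, so no interval on a level is possible. FPKM divides a 3' tag count by transcript length, so levels are compared within a gene. The highest correlation between libraries was 0.974, and none was a copy.

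From these values, log2(FPKM + 1) was fitted in R 4.3.3 by limma 3.58.1 (moderated by eBayes with trend, 1 mean for each of 4 groups, 10 residual degrees of freedom). A gene was tested if 3 or more libraries reached 1 FPKM (10870 genes), with Benjamini-Hochberg adjustment over them, and calls at 0.05. Every adjusted p is from limma except that of the Hsd3b sum. Family sums were tested by exact permutation in scipy 1.17.1, with Benjamini-Hochberg adjustment over the 4 comparisons. The code was tested on simulated data. Library sets were found by clustering shared single-fragment ratios. Genes named beyond the 8 were called ones, at most 4 per list and KO comparison in order of p, and the 3 genes nearest each called enzyme. H6pd, Nr3c1, Fkbp5, Tsc22d3, Ugt2b34, Cyp2c29, Hsd17b12, Nsdhl, Hsd3b4 and the other Hsd3b genes were named outside that rule after their values were seen. Members and lists were chosen with earlier results of these data known.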

Additional observations from a re-analysis of the deposited data

Results flagged for a closer look

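Cyp17a1 in KO on WD had 1 library far from the others: replicate 4 measured 12.3 FPKM (12.29 before rounding), and the other 3 measured 8.07 to 8.76 FPKM. Its gap to the nearest library was 0.836 of the group's range, above the 0.829 that marks a far sample among 4. Without this library the knockout effect on WD was no longer called (adjusted p = 0.118, limma). Of 16 groups of 4 libraries examined, this was the only one, and chance flags about 1 in 20.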

How the results depend on the processing

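Over all comparisons and alternatives, single enzymes kept their side of the threshold in 611 of 640 results, lost a call in 26 and gained one in 3. No called enzyme changed sign, but 39 results that were not called did, among them Srd5a1 in 4 of the 5 comparisons, Hsd3b3 on CD, Hsd17b2 on WD and Hsd17b6 for the difference. Hsd3b5 and Cyp17a1 on CD kept their calls throughout; the calls lost on WD were mostly of Cyp17a1 (15 of 17 alternatives), while Hsd3b5 lost 1, Hsd11b1 lost 2 and Hsd3b3 lost 3 of 17. The 1633 genes called on CD became 126 with the library set as a term and 586 with the replicate block, and 590 to 1251 with 1 library left out. The 762 on WD became 457 after median centring, 411 with only these 2 groups, 130 within set 1, 0 within set 2 (limma; 1009 at an unadjusted p under 0.05) and 448 to 806 with 1 library left out. The 141 for diet in WT became 76 with the set term, 60 with the block, 41 with 2 groups, 17 within set 1 and 40 to 120 with 1 library left out. The 693 for diet in KO became 351 without the filter, 38 with the set term, 85 with the block, 29 within set 2 and 115 to 1116 with 1 library left out. The 37 for the difference became 24 at a pseudocount of 0.1, 21 without the filter, 2 with the set term, 4 with the block and 4 to 1037 with 1 library left out. Of the 8 enzymes, the 4 called on WD became 2 with 2 groups, 1 within set 1, 0 within set 2 (1 at an unadjusted p under 0.05) and 3 to 4 with 1 library left out, and the 1 for diet in KO became 0 with the block and 0 within set 2. With 1 library left out, 2 stayed called on CD, and 0 to 1 were called for diet in WT, for diet in KO and for the difference. The 17 other steroid genes called on CD became 3 with the set term, an alternative chosen after seeing the data. The log2 difference of the Hsd3b sum ran, with 1 library left out, from -1.01 to -0.86 on CD, from -1.06 to -0.88 on WD (exact p = 0.0571, the smallest then possible), from 0.05 to 0.23 for diet in WT and from 0.03 to 0.18 for diet in KO. Fits that leave a group with 1 library assume that it varies like the others. The cause of these changes was not tested.

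Replicate numbers did not pair the libraries: deviations of libraries with the same number correlated from -0.297 to 0.158, so the replicate block is only an alternative. Levels of a few fragments, such as Hsd3b5 in most KO libraries, are limited by depth, which is known only roughly. Hsd17b6 (0.204 to 9.48 FPKM) and Hsd17b2 (0.594 to 11.2 FPKM) were low as well, and their lowest libraries share this limit.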
